A study of Oryza sativa with 7 samples.

Results

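The genes described here are those read at higher levels in rice crown root primordia at outgrowth than in every library of primordia at initiation and of ground tissue. A gene was taken when its lowest level in the 2 outgrowth libraries was at least 5 CPM (the reads of a gene per 1000000 reads of its library) and at least 3 times its highest level in the 5 other libraries. The identifiers LOC_Os06g31000 to LOC_Os06g32700 were left out. This gave 180 of the 24728 genes with a LOC_Os identifier and a read in any library, or 0.728%, and 1.32% of the 13672 that had at least 5 CPM in both outgrowth libraries. The genes were chosen by these levels, so their excess at outgrowth is given as a description, and the edgeR calls of it given further on support nothing.

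Crown roots arise from the stem base of cereals and form most of the rice root system. A primordium begins when cells near the vascular tissue of the stem start to divide, then organises a root meristem, and at outgrowth it extends through the tissue around it. Growing root tips are known to depend on directed auxin transport, on gibberellin and on the assimilation of nitrogen.

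All libraries were from 6-day-old wild-type seedlings of the cultivar IR64 grown on 1/2 MS medium, with tissue taken from the stem base by laser capture microdissection, which cuts selected cells out of a section. The groups were primordia at outgrowth (2 libraries), primordia at initiation (3 libraries) and ground tissue as control (2 libraries). How many plants or primordia made up a library, and whether libraries of a group came from separate plants, is not in the labels, so a p-value here reflects the spread between libraries, which may be technical. Fewer cells of a type and less RNA per cell cannot be told apart in captured tissue.

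Totals were 12517569 and 11337620 reads at outgrowth, 11411697 to 21043491 at initiation and 8351775 and 25448025 in control. Initiation replicates 1 and 3 differed less than counting noise allows, with a variance ratio of 0.4 against 27.5 between replicates 1 and 2, and they were counted as 1 sample, which leaves n = 2 in each group. The outgrowth tables also differed in layout from the rest and listed more genes with 1 to 3 reads (2321 and 2241, against 1014 to 1403 in the other libraries), so a batch and the stage cannot be told apart. Summed CPM of 5 leaf photosynthesis genes was 5.11 and 3.00 at outgrowth, 5.87, 4.40 and 5.89 at initiation, and 255 and 667 in control. For 3 shoot meristem genes the sum was 249 and 232 at outgrowth, 364, 369 and 366 at initiation, and 780 and 922 in control. The locus listed as OSH71, 1 of the 3, did not follow the sum. It had 131 and 123 CPM at outgrowth, 99.6, 110.5 and 101 CPM at initiation, and 97.0 and 127 CPM in control. Of 11 crown root regulators tested, edgeR called 4 up and 2 down at initiation relative to control (adjusted p below 0.05). Of all 18830 genes tested it called 14.4% up and 16.1% down. Higher were the loci listed as ERF3, SCR1, SCR2 and QHB: SCR1, a regulator of root tissue patterning, had 94.9 and 89.35 CPM at outgrowth, 208.5, 157 and 208 CPM at initiation, and 12.1 and 25.1 CPM in control. QHB, a regulator of the root stem cell niche, had 20.6 and 20.2 CPM at outgrowth, 164, 236 and 160.4 CPM at initiation, and 1.32 and 14.97 CPM in control. Lower were the loci listed as CRL5 and WOX11, which are known from primordia: the CRL5 locus had no read at outgrowth, 0.876, 6.99 and 0.808 CPM at initiation, and 150.4 and 156 CPM in control.

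**Figure D1:**
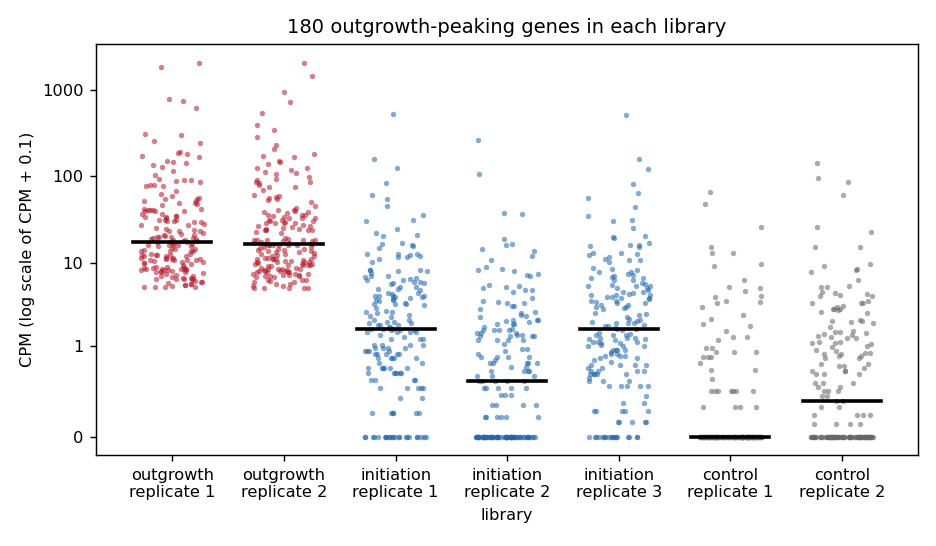
CPM of the 180 genes in the 7 libraries, on a log scale of CPM + 0.1, with 1 point per gene and a black bar at the median. Medians were 17.4 and 16.6 CPM at outgrowth, 1.66, 0.333 and 1.64 CPM at initiation, and 0 and 0.157 CPM in control.

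Together the 180 genes took 1.27% and 1.24% of the reads at outgrowth, 0.174%, 0.0744% and 0.172% at initiation, and 0.0268% and 0.0646% in control. Their mean outgrowth level had a median of 17.3 CPM and ranged from 5.15 to 1952 CPM: 52 genes were under 10 CPM, 69 between 10 and 30, 37 between 30 and 100, 20 between 100 and 1000, and 2 above 1000. The 10 most abundant genes held 58.1% of the summed level. The outgrowth libraries were within 1.5-fold of each other for 168 of the 180 genes (93.3%), against 96.2% of the 13672 genes, and replicate 1 was the higher in 90.

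Among the 172 genes with a read outside outgrowth, the ratio of the lowest outgrowth level to the highest other level had a median of 6.09. It lay between 3 and 5 for 70 genes, between 5 and 10 for 51, between 10 and 30 for 31 and at 30 or more for 20. Just inside the limit were LOC_Os02g54450, LOC_Os03g19330 and LOC_Os07g48490, with ratios of 3.04, 3.09 and 3.1, and just outside were LOC_Os02g43790, LOC_Os04g33900 and LOC_Os01g04450, with 2.999, 2.996 and 2.99. No gap in the ratios sets the 180 genes apart from the next ones.

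No table used here pairs these identifiers with gene names, and the reference gene table matched none of them. The 5 names given below to members, and those of the listed genes, come from general knowledge of published rice loci and were not checked against an annotation. The loci of GA20ox1 and PIN2 were on gene lists, and the loci of GS1;1, GIF1 and NRT1.1B were recognised among the members after their values were seen. Every other member is given by its identifier alone.

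An enzyme and a carrier of nitrogen nutrition stood at very different levels. The locus of GS1;1 (LOC_Os02g50240), a cytosolic glutamine synthetase that fixes ammonium into glutamine, had the highest mean outgrowth level of the 180 genes. It had 1848 and 2056 CPM at outgrowth, 522, 266 and 516 CPM at initiation, and 48.7 and 86.9 CPM in control. The groups did not overlap, and initiation lay between outgrowth and control. The locus of NRT1.1B (LOC_Os10g40600), a nitrate transporter, had 7.11 and 8.20 CPM at outgrowth, 0, 0 and 0.0475 CPM at initiation, and 0.718 and 1.34 CPM in control. Here initiation was the lowest group, with 1 read in all, and control lay between. The listed ammonium and nitrate transport loci AMT1;1, AMT1;2, AMT1;3, NRT2.1, NRT2.2 and NRT2.3 had no read at outgrowth. NAR2.1, listed with them, had 0 and 0.176 CPM at outgrowth. None of these was a member, and none exceeded 2.08 CPM in any library.

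The locus of PIN2 (LOC_Os06g44970), an auxin efflux carrier of root tips, had 36.4 and 35.5 CPM at outgrowth, 7.71, 3.46 and 7.75 CPM at initiation, and 9.10 and 2.08 CPM in control. Initiation and control overlapped. Of the other listed auxin transport loci with a read, the efflux carrier PIN1b had 219 and 169.5 CPM at outgrowth, 204, 344 and 198 CPM at initiation, and 272 and 392 CPM in control, and the influx carrier AUX1 had 10.7 and 11.9 CPM at outgrowth, 7.27, 8.26 and 7.89 CPM at initiation, and 112 and 139.7 CPM in control.

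The locus of GA20ox1 (LOC_Os03g63970), an oxidase late in gibberellin synthesis, had 7.59 and 7.76 CPM at outgrowth and no read in the 5 other libraries. Set against a floor of 3 counts over those libraries together, 0.0369 CPM, its mean outgrowth level was at least 208-fold higher, a bound that covers counting error only. The listed paralogue GA20ox2 had 2.08 and 2.03 CPM at outgrowth, 0.263, 0 and 0.238 CPM at initiation, and 4.67 and 1.93 CPM in control. GA3ox2, which completes active gibberellin, had 0.399 and 0.441 CPM at outgrowth, 0.263, 0.533 and 0.190 CPM at initiation, and 17.8 and 26.1 CPM in control. Both of these were highest in a control library.

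The locus of GIF1 (LOC_Os03g52320), a co-activator that partners growth-regulating factors, had 15.5 and 15.96 CPM at outgrowth, no read at initiation, and 0 and 1.26 CPM in control. Its only reads outside outgrowth were in control replicate 2.

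**Figure D2:**
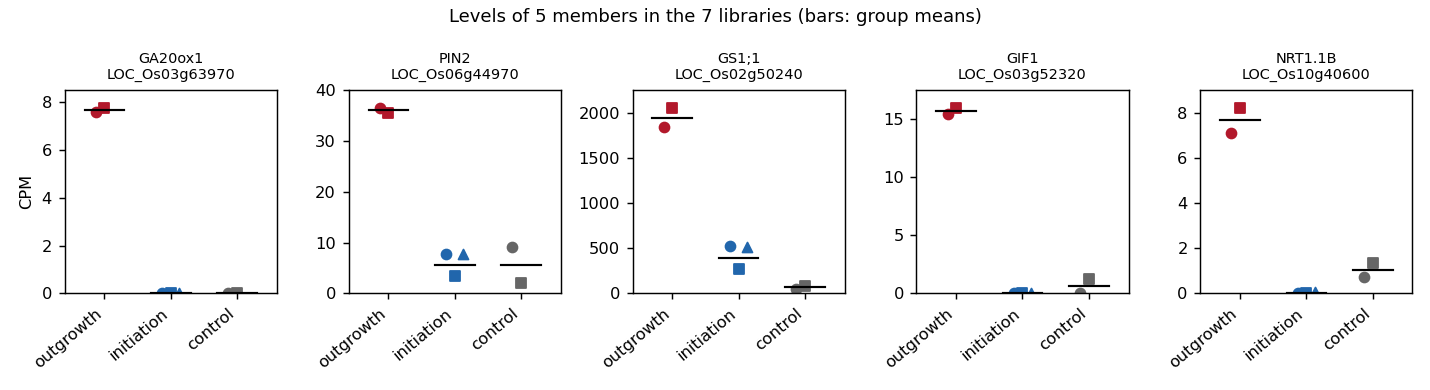
CPM of the 5 members with names in the 7 libraries (circles, squares and triangles are replicates 1, 2 and 3), for outgrowth, initiation and control, with bars at group means in which initiation replicates 1 and 3 enter as 1 sample. Outgrowth is above the rest by the rule; GA20ox1 has no read elsewhere, and GS1;1 and PIN2 are read in all 7 libraries.

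The other most abundant genes differed in where they were next highest. LOC_Os04g59260 had 2056 and 1451 CPM at outgrowth, 126, 108 and 122 CPM at initiation, and 13.1 and 60.8 CPM in control, with no overlap between groups. LOC_Os02g41904 had 791 and 951 CPM at outgrowth, 61.1, 7.19 and 64.96 CPM at initiation, and 26.3 and 145 CPM in control. Its highest level outside outgrowth was in control replicate 2, with initiation replicate 2 lowest.

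LOC_Os01g68589 had 619 and 719 CPM at outgrowth, 30.5, 1.47 and 30.4 CPM at initiation, and 3.35 and 22.8 CPM in control. Its neighbour by locus number, LOC_Os01g68580, had 54.7 and 59.01 CPM at outgrowth, 3.15, 3.40 and 3.23 CPM at initiation, and 0.479 and 2.83 CPM in control. Initiation replicate 2 was far below replicates 1 and 3 for the first of these genes and level with them for the second.

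LOC_Os03g14050 had 753 and 546 CPM at outgrowth, 160.4, 18.9 and 161 CPM at initiation, and 65.97 and 96.6 CPM in control. LOC_Os04g54620 had 305 and 398 CPM at outgrowth, 17.1, 1.60 and 17.1 CPM at initiation, and 2.16 and 8.25 CPM in control. LOC_Os06g40870 had 305 and 344 CPM at outgrowth, 35.5, 0.466 and 34.9 CPM at initiation, and 0 and 0.472 CPM in control. In all 3, initiation replicate 2 was well below replicates 1 and 3, and in LOC_Os06g40870 it was level with control replicate 2. LOC_Os07g48490 had 257 and 284 CPM at outgrowth, 83.1, 36.4 and 81.4 CPM at initiation, and 0.958 and 2.83 CPM in control. LOC_Os04g59160 had 242 and 234 CPM at outgrowth, 4.91, 0.932 and 5.37 CPM at initiation, and no read in control. LOC_Os07g38130 had 182 and 173 CPM at outgrowth, 45.2, 37.9 and 44.2 CPM at initiation, and 0 and 0.589 CPM in control. These 3 were above control in every initiation library.

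**Figure D3:**
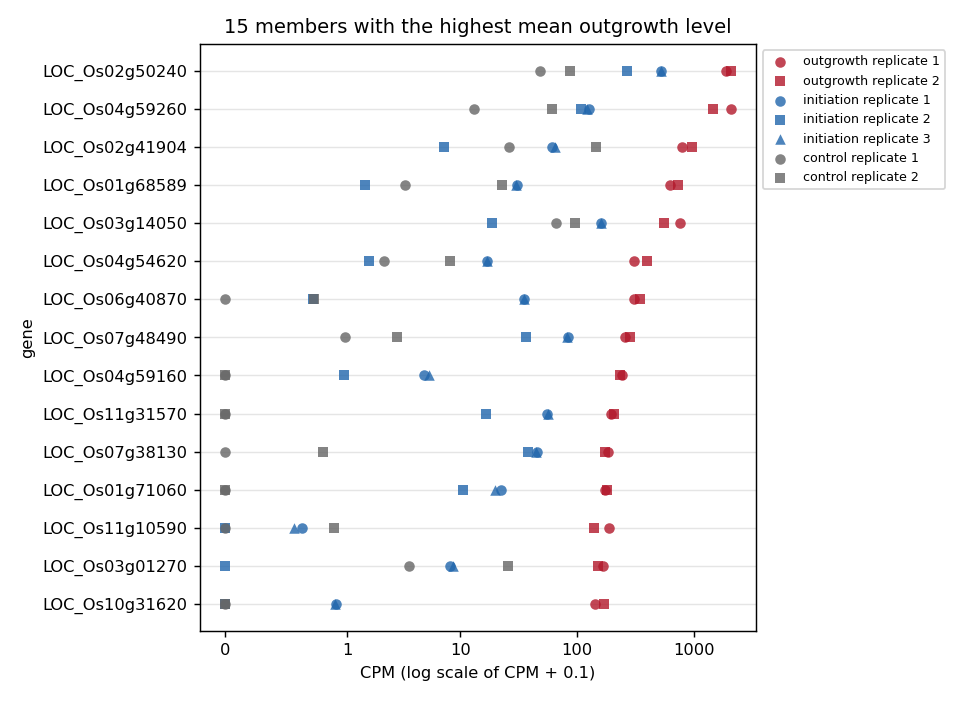
CPM of the 15 members with the highest mean outgrowth level in the 7 libraries, on a log scale of CPM + 0.1 (circles, squares and triangles are replicates 1, 2 and 3). Initiation replicate 2 lies to the left of replicates 1 and 3 in all 15 genes, at 266 CPM against 522 and 516 CPM for LOC_Os02g50240.

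The widest ratio was that of LOC_Os11g10590, 188. It had 189 and 140.2 CPM at outgrowth, 0.351, 0 and 0.285 CPM at initiation, and 0 and 0.747 CPM in control. LOC_Os10g31620, with a ratio of 179, had 141 and 169 CPM at outgrowth, 0.789, 0 and 0.760 CPM at initiation, and no read in control. LOC_Os01g08170, with a ratio of 169, had 10.1 and 8.03 CPM at outgrowth and 1 read elsewhere, in initiation replicate 3. LOC_Os10g41999, with a ratio of 125, had 87.8 and 97.6 CPM at outgrowth, 0.701, 0 and 0.428 CPM at initiation, and no read in control. The 6 next ratios ran from 46.8 for LOC_Os01g11860 to 84.4 for LOC_Os01g03360, with LOC_Os02g03870, LOC_Os03g30470, LOC_Os02g45380 and LOC_Os01g03680 between them.

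No read outside outgrowth was found for 8 genes, GA20ox1 among them. LOC_Os08g40720 had 76.9 and 76.3 CPM at outgrowth, at least 2075-fold above the pooled floor. LOC_Os12g30080 had 23.2 and 23.99 CPM at outgrowth and LOC_Os05g20930 had 11.98 and 16.1 CPM at outgrowth, at least 639.8-fold and 379.7-fold above it. LOC_Os08g01710 had 10.6 and 11.2 CPM at outgrowth and LOC_Os05g06970 had 8.71 and 10.5 CPM at outgrowth. These 5 were the most abundant of the 8.

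Members lay on all 12 chromosomes by their identifiers, from 0.776% of the genes with at least 5 CPM at outgrowth on chromosome 9 to 2.49% on chromosome 10. In 13 runs, 29 members (16.1%) had a locus number within 100 of the next member, and 2 runs held at least 3. On chromosome 1, LOC_Os01g03270 had 13.8 and 16.9 CPM at outgrowth, 0.263, 0 and 0.428 CPM at initiation, and 0 and 2.12 CPM in control, and LOC_Os01g03320 had 6.55 and 6.26 CPM at outgrowth, 0.876, 0.3996 and 0.665 CPM at initiation, and no read in control. LOC_Os01g03340 had 148 and 125 CPM at outgrowth, 0.526, 0 and 0.523 CPM at initiation, and 0 and 15.2 CPM in control. LOC_Os01g03360 had 94.1 and 69.7 CPM at outgrowth, no read at initiation, and 0 and 0.825 CPM in control. LOC_Os01g03340 was the most abundant of these 4 genes and LOC_Os01g03320 the least, and LOC_Os01g03330 among them had 5.99 and 4.32 CPM at outgrowth, no read at initiation, and 0 and 0.354 CPM in control and missed the minimum in replicate 2. On chromosome 10, LOC_Os10g31540 had 18.5 and 27.5 CPM at outgrowth, 0.526, 0.0666 and 0.428 CPM at initiation, and no read in control, and LOC_Os10g31630 had 14.5 and 18.1 CPM at outgrowth, 4.38, 0.599 and 3.42 CPM at initiation, and no read in control, beside the more abundant LOC_Os10g31620. Where neighbours are near copies, the counting could have split their reads, which was not tested.

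Initiation against control is the contrast that the rule did not set directly, although the rule caps the levels of both groups. On these groups alone, 76 of the 180 genes had at least 1 CPM in at least 2 libraries, initiation replicates 1 and 3 as 1. Of the 76, 29 (38.2%) were higher and 2 (2.63%) lower at initiation by edgeR's quasi-likelihood test at an adjusted p below 0.05. Of all 17962 genes with such levels, 14.6% and 16.7% were. Among the 29, 15 had no control read and so passed this filter through initiation alone. Of the 2 called lower, LOC_Os12g36240 passed it through control alone. The rule caps control and initiation levels of members but not of the 17962 genes. These shares are therefore a description. The other 104 members entered the fit only through outgrowth, the group that chose them, and 23 more were called higher and 2 more lower. With them the counts are 52 (28.9%) and 4 (2.22%) of 180, beside 14.4% and 16.1% of all 18830 genes tested, and nothing is read from these. Every initiation library was above both control libraries for 72 of the 180 genes (28.2% of all genes tested) and below both for 7 (35.1% of all genes tested), which is a description.

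**Figure D4:**
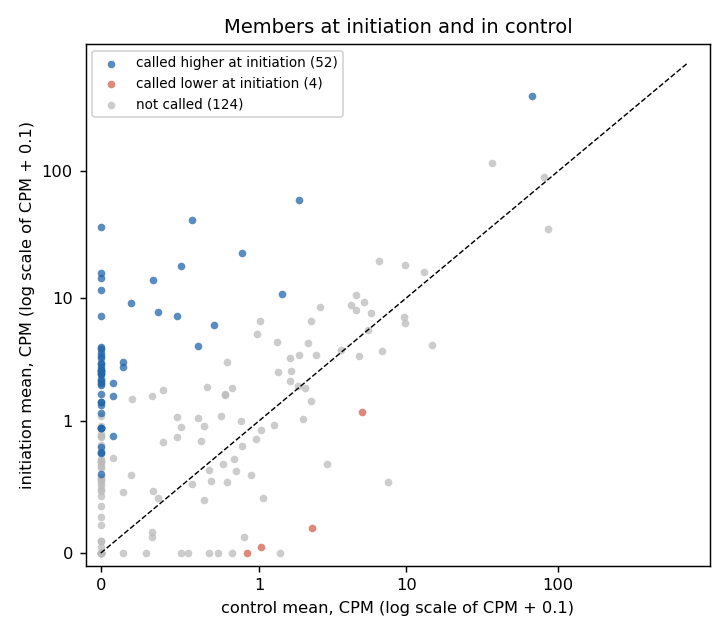
Mean CPM of the 180 genes at initiation (vertical axis, replicates 1 and 3 as 1 sample) and in control (horizontal axis), each on a log scale of CPM + 0.1, coloured by edgeR call. The 52 genes called higher at initiation lie above the dashed line of equal levels, 35 of them with no control read, and the 4 called lower lie below it.

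GS1;1 was among the 29, with a log2 fold change of initiation to control of 2.61 (SE 0.37, edgeR adjusted p = 0.00236). Control had no read for 15 of the 29, and for these a fold is given against a floor of 3 counts over both control libraries, 0.0888 CPM. These 15 passed the filter through initiation alone, so their calls and p-values are a description and support nothing. LOC_Os11g31570 had 193 and 208 CPM at outgrowth, 54.9, 16.7 and 56.7 CPM at initiation, and no read in control, so initiation was at least 408-fold above that floor (edgeR adjusted p = 0.00105). LOC_Os01g71060 had 172 and 181 CPM at outgrowth, 22.4, 10.7 and 19.8 CPM at initiation, and no read in control, a difference of at least 179-fold (edgeR adjusted p = 0.000422). Both genes were read in every primordium library and in neither control library.

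LOC_Os03g07660 had 86.7 and 125 CPM at outgrowth, 20.9, 8.53 and 19.6 CPM at initiation, and no read in control, a difference of at least 162-fold (edgeR adjusted p = 0.000881). LOC_Os01g52660 had 68.4 and 79.1 CPM at outgrowth, 14.8, 8.06 and 15.1 CPM at initiation, and no read in control, a difference of at least 129.7-fold (edgeR adjusted p = 0.000554). LOC_Os07g15320 had 49.6 and 40.8 CPM at outgrowth, 11.7, 3.13 and 10.9 CPM at initiation, and no read in control, a difference of at least 81.2-fold (edgeR adjusted p = 0.00251). In all 3 the order was outgrowth, initiation, control. Of the 52 genes called over all members, 44 were higher in initiation replicates 1 and 3 than in replicate 2.

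The 2 genes of the 76 called lower at initiation were LOC_Os03g62270 and LOC_Os12g36240. LOC_Os03g62270 had 23.3 and 24.3 CPM at outgrowth, 0.964, 1.33 and 1.14 CPM at initiation, and 5.03 and 5.15 CPM in control, a log2 fold change of initiation to control of -1.96 (SE 0.47, edgeR adjusted p = 0.0173). LOC_Os12g36240 had 17.3 and 12.9 CPM at outgrowth, 0.0876, 0 and 0.143 CPM at initiation, and 1.56 and 3.104 CPM in control (edgeR adjusted p = 0.0104). LOC_Os12g36240 passed the filter through control alone, so its call is a description and is not read as a lower level at initiation. Both were scarce at initiation, with at most 1.33 CPM. NRT1.1B and LOC_Os02g47190 were also called lower (edgeR adjusted p = 0.0134 and 0.0259) but entered the fit only through outgrowth, so these calls are not read as a lower level at initiation. LOC_Os02g47190 had 12.5 and 8.38 CPM at outgrowth, no read at initiation, and 0.239 and 1.38 CPM in control. The count of 4 over all members rose without control replicate 1. It fell without initiation replicate 2 and without outgrowth replicate 1 or 2, which share the estimate of spread. Each of these fits leaves 1 sample in a group, so their counts are not given.

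The initiation libraries differed for these genes. Replicates 1 and 3 averaged above replicate 2 for 139 of the 180 genes (77.2%) and below it for 24, and 17 had no initiation read; of the 13672 genes, 55.1% were above. The rule used these levels too, through the highest of them, so this is a description. The median difference of log2(CPM + 1) was 0.62 for the 180 genes and 0.06 for the 13672. In replicate 2, 68 of the 180 genes had no read, against 23 and 18 in replicates 1 and 3. The highest level outside outgrowth was in initiation replicate 1 for 64 genes, in replicate 3 for 50 and in replicate 2 for 17, and in control replicate 2 for 38 and replicate 1 for 3.

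LOC_Os07g18750 had 128 and 113 CPM at outgrowth, 15.9, 0 and 16.1 CPM at initiation, and 5.27 and 4.05 CPM in control. At its level in initiation replicate 1, replicate 2 would have held 239 reads, and it held none. LOC_Os11g15130 had 30.5 and 33.1 CPM at outgrowth, 8.24, 0 and 7.84 CPM at initiation, and no read in control, and 124 reads in initiation replicate 2 would have matched replicate 1. LOC_Os03g01270 had 167 and 149.8 CPM at outgrowth, 8.24, 0 and 8.74 CPM at initiation, and 3.59 and 25.9 CPM in control, and again 124 reads in initiation replicate 2 would have matched replicate 1.

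**Figure D5:**
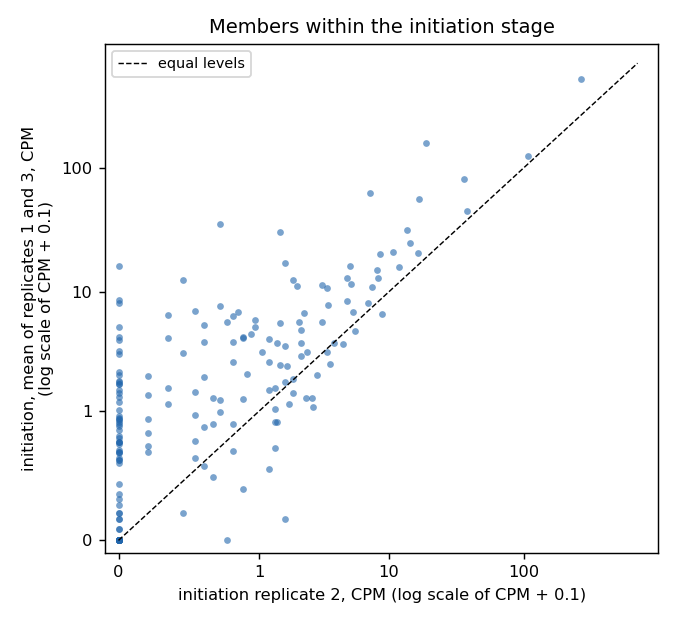
CPM of the 180 genes in initiation replicate 2 (horizontal axis) and as the mean of initiation replicates 1 and 3 (vertical axis), each on a log scale of CPM + 0.1. Above the dashed line of equal levels lie 139 genes, below it 24, and 17 are at 0 on both axes.

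The control libraries differed too. Replicate 2 was above replicate 1 for 88 of the 180 genes (48.9%) and below it for 16 (8.89%), and 76 (42.2%) had no read in either. Of the 13672 genes, 50.6% were above, 48.5% below and 0.951% had no read in either. For 23 genes (12.8%) replicate 1 had no read while replicate 2 had at least 1 CPM, against 1.13% of the 13672. Replicate 1 held fewer reads in total, 8351775 against 25448025. The rule caps control levels, so reads of 0 are frequent among these genes by choice. For LOC_Os01g03340, 127 reads in replicate 1 would have matched replicate 2. Without control replicate 2 the rule took 233 genes.

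In the contrasts that the rule used, edgeR called 59 members (32.8%) higher and none lower at outgrowth relative to initiation, where 1.25% and 1.83% of all genes tested were. Relative to control it called 155 (86.1%) higher and none lower, where 12.8% and 13.6% of all genes were. These shares follow from the choice of genes, and nothing is read from them. The count of 59 fell far without initiation replicate 2 and without outgrowth replicate 1 or 2. It rose far without control replicate 1 or 2. Each of these fits leaves 1 sample in a group, so their counts are not given. The 155 also fell without outgrowth replicate 1 or 2. In those fits 127 of the 180 members passed the filter on levels and were tested, so fewer could be called.

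Of 96 listed rice loci in 16 groups of root, hormone, transport, wall, defence and photosynthesis genes, 78 had a read, 59 were tested and 2 were members. The higher calls of those 2, GA20ox1 and PIN2, follow from the rule. Of the other 4 gibberellin genes, 2 were lower at outgrowth than in control by edgeR and none higher, and of the other 2 auxin transport genes tested, 1 (AUX1) was lower. Of 11 crown root regulators tested, 2 were higher and 4 lower at outgrowth than in control. All 5 water channel genes tested were lower, as were 4 of 4 leaf photosynthesis genes. Of 15 listed root nutrient transport genes 3 were tested, and 1, the locus listed as IRT1, was higher. It had 1.44 and 2.91 CPM at outgrowth, at most 0.175 CPM at initiation and no read in control. It entered the fit only through outgrowth, so nothing is read from this call.

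Profiles were compared by Pearson's r of log2(CPM + 1) over 6 libraries, initiation replicates 1 and 3 as 1, among 13682 genes. Nearest to GS1;1 was LOC_Os01g25610 (r = 0.999), with 884 and 907 CPM at outgrowth, 545, 451 and 555 CPM at initiation, and 225 and 294 CPM in control. Nearest to LOC_Os04g59260 was LOC_Os02g33560 (r = 0.995), with 241 and 189.7 CPM at outgrowth, 100.1, 81.7 and 97.1 CPM at initiation, and 43.7 and 74.3 CPM in control. Nearest to LOC_Os02g41904 was the member LOC_Os03g01270 (r = 0.998). An r of at least 0.99 was reached by 28 genes for GS1;1, 13 for LOC_Os04g59260 and 9 for LOC_Os02g41904. The nearest gene is therefore 1 of several with like profiles. Neither LOC_Os01g25610 nor LOC_Os02g33560 met the ratio of the rule, and r is blind to the size of a difference.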

How the data were processed

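Captured tissue gave RNA by a PicoPure kit, and sequencing libraries by a SMARTer low-input kit, per the labels' protocols. The submitters' processing notes name STAR; its version, the counting tool, strand setting and genome build were not given in the sources used here. The deposited values are headed FPKM but were taken as counts, because all are whole and the totals differ between libraries. Genes absent from a file were set to 0.

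CPM used unscaled library totals. For tests, initiation replicates 1 and 3 were replaced by their rounded mean. The 18830 genes reaching 1 CPM in 2 or more of the resulting libraries were fitted over all 3 groups with edgeR 4.0.16 in R 4.3.3 (TMM, glmQLFit and glmQLFTest, two-sided, Benjamini-Hochberg over all genes, threshold 0.05), with 3 residual degrees of freedom. DESeq2 1.42.0, other filters, no merging, a replicate block and leaving out each library were alternatives. The fit was tested on simulated data.

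Members and gene lists were chosen with earlier results of these data known. Members were named if among the 15 most abundant, the 10 largest ratios, the 5 most abundant with no read elsewhere, the 5 largest calls per direction between initiation and control, the 3 nearest the ratio limit on each side, runs of 3 or more neighbours, or known loci; a few others illustrate counts and were chosen after their values were seen. Folds against the floor of 3 counts cover counting error only.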

Additional observations from a re-analysis of the deposited data

Results flagged for a closer look

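Reads above control were also found in 5 identifiers that met both limits but are not among the 180 genes. In the identifier range left out on chromosome 6, mean outgrowth levels were 833 CPM for LOC_Os06g31890, 533 CPM for LOC_Os06g32240, 139 CPM for LOC_Os06g32020 and 19.2 CPM for LOC_Os06g32160, and none had a read at initiation or in control. ChrSy.fgenesh.gene.26, which is not a LOC_Os identifier, had a mean of 9.5 CPM at outgrowth and at most 1.05 CPM elsewhere.

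Of the 7 members with every initiation library below both control libraries, edgeR called 4 lower at initiation. Their fitted log2 fold changes of initiation to control were -6.93 for LOC_Os10g40600 (NRT1.1B), -6.65 for LOC_Os02g47190, -4.97 for LOC_Os12g36240 and -1.96 for LOC_Os03g62270. Outgrowth was above control by the rule. LOC_Os10g40600 and LOC_Os02g47190 entered the fit only through outgrowth. On initiation and control libraries, LOC_Os12g36240 passed the filter through control alone. At initiation LOC_Os10g40600 had 1 read in all and LOC_Os02g47190 had none. The fitted -6.93 and -6.65 are therefore not measured sizes of a difference. edgeR also called all 4 higher at outgrowth than at initiation (adjusted p = 0.023, 0.0287, 0.0159 and 0.01, in the same order), a contrast that chose the members and so supports nothing.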

How the results depend on the processing

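The 180 members became 311 at a ratio of 2, 110 at a ratio of 5, 336 at a minimum of 1 CPM and 298 with group means, and 182 to 239 with 1 library left out. With 1 library left out, calls over all genes ranged from 3076 to 7970 for initiation against control (5729 with all libraries), from 0 to 1821 for outgrowth against initiation (580) and from 1523 to 7590 for outgrowth against control (4976). Outgrowth against initiation gave 1811 calls by DESeq2, 1523 with no filter on low counts and 1624 with initiation replicates 1 and 3 kept apart. Members higher at initiation than in control numbered 86 with no filter and 42 to 76 with 1 library left out. Members lower numbered 12 with no filter, 10 with replicates 1 and 3 apart and 1 to 15 with 1 library left out. Without outgrowth replicate 1 or 2, 127 of the 180 members passed the filter on levels and were tested, so fewer could be called. Over all genes, initiation against control gave 3303 higher and 3290 lower calls of 24733 tested with no filter. It gave 3713 and 4305 of 18998 with replicates 1 and 3 apart, and 2704 and 3025 of 18830 in the fit used above. Without initiation replicate 2, members called higher rose while calls higher over all genes fell, but that fit leaves 1 sample in a group. The shifts in member counts are not read as particular to the members. The causes of these shifts were not tested. Replicate numbers did not pair the libraries (correlations of differences 0.022, -0.027 and 0.008); with the replicate block, calls numbered 5136 for initiation against control, 617 for outgrowth against initiation and 4401 for outgrowth against control, with 48 members higher and 4 lower at initiation. Calls of initiation against control were recomputed for the 5 members with the largest higher calls and the 4 called lower. Of these, 99 kept their side of the threshold, 9 lost it and none changed sign. The 5 called higher had no read in control and LOC_Os02g47190 had none at initiation, so their sign could not change. The 5 were also picked for the largest fitted differences, so their kept calls support nothing. All 9 losses were among the members called lower, each with 1 library left out. They were 4 for LOC_Os02g47190, 3 for LOC_Os03g62270 and 2 for LOC_Os10g40600.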
